A study of Homo sapiens with 12 samples.

Results

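Acetylation of lysine on the tail of histone H3 (H3K27ac), a chromatin mark of promoters and enhancers in use, was described at the genes of 4 nuclear receptors, RXRA, VDR, NR3C1 and NR5A2. Each gene was represented by a fixed window of the hg19 genome, and every called peak that overlapped a window was counted as a member. The windows were chr9:137200000-137340000 for RXRA (140.0 kb), chr12:48230000-48310000 for VDR (80.0 kb), chr5:142640000-142830000 for NR3C1 (190.0 kb) and chr1:199980000-200160000 for NR5A2 (180.0 kb). They held 135 of the 190767 peaks on chromosomes 1 to 22 and X, which merged into 39 of 58994 regions.

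The mark was mapped by ChIP-seq, the sequencing of DNA pulled down with an antibody, in cell lines of pancreatic ductal adenocarcinoma. SUIT2 was derived from a liver metastasis and BxPC3 from a primary tumour, both being established human lines, and Panc327 is described by the labels only as a line of this tumour type. All cells were untreated, and the groups are told apart by cell line: SUIT2, BxPC3 and Panc327 each had 2 H3K27ac libraries and 2 input libraries, 12 samples in all. Any difference in library handling between the lines cannot be told apart from the line itself. Nothing states that the 2 libraries of a line came from separate cultures, so the spread between them may be technical, and each line stands for itself and not for a tumour subtype. The labelled cell type was not checked against ductal or acinar marker genes, because gene positions on hg19 were not used here.

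Nuclear receptors are transcription factors that bind DNA through a zinc-finger domain, and most of them are switched by small lipid-soluble ligands. RXRA, the retinoid X receptor alpha, is the common partner with which VDR, the vitamin D receptor, and several other family members bind DNA as heterodimers. NR3C1 is the glucocorticoid receptor, which enters the nucleus on hormone binding and acts mainly as a homodimer. NR5A2, also called LRH-1, binds DNA as a monomer, and in the pancreas it is known for its part in acinar cell identity.

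Sequences before the annotated starts of 3 of the 4 genes were taken from RefSeq on build GRCh38.p14, as the 250 bases just before each start. Entries were found for RXRA (2 starts), NR3C1 (7 starts) and NR5A2 (2 starts), and none was found for VDR. The peaks are on hg19 and were not placed on these sequences, so no peak below is called a promoter peak. The first start of RXRA (chr9:134326205-134326454, plus strand) and the sixth listed start of NR3C1 (chr5:143403687-143403936, minus strand) are shown for their CG pairs, given in capitals, since they are the richest in CG pairs of each gene.
RXRA start 1: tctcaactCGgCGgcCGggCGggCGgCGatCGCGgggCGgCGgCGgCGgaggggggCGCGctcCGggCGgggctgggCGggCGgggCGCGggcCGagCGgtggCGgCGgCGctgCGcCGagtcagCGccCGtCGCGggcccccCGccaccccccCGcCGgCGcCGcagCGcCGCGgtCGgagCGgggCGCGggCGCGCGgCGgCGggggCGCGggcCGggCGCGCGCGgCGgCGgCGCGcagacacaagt
NR3C1 start 6: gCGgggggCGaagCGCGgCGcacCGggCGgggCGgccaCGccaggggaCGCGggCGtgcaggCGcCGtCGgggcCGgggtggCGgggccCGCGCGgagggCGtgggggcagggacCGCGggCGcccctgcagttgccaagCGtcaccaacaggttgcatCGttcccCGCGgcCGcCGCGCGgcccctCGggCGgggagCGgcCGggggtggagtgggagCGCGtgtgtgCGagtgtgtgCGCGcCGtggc
RXRA start 1 held 59 CG pairs, and 0.0114% of 35116 RefSeq promoters of this length held as many. NR3C1 start 6 held 42, a number reached by 1.38% of promoters, where the median promoter held 11. Both starts of NR5A2 are shown for the receptor core motifs they hold, given in capitals (start 1 at chr1:200027460-200027709 and start 2 at chr1:200042341-200042590, both on the plus strand).
NR5A2 start 1: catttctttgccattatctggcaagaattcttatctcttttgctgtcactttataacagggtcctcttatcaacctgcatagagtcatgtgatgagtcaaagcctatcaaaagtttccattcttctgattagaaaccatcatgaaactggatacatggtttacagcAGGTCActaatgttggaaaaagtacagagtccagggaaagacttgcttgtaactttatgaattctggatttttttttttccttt
NR5A2 start 2: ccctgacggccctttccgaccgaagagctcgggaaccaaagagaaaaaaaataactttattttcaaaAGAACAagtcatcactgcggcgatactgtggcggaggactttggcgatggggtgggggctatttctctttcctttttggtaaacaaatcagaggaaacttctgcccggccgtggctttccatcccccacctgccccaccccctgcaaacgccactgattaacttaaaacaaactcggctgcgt
Both strands were searched for AGGTCA, the core recognised by many nuclear receptors, and for AGAACA, the core recognised by the glucocorticoid receptor; on the opposite strand the first motif reads TGACCT and the second motif reads TGTTCT. The first was found in 12.1% and the second in 12.4% of all 35116 promoters. NR5A2 start 1 held 1 AGGTCA and 0 CG pairs, and start 2 held 1 AGAACA and 13 CG pairs. Neither motif was found in the 7 NR3C1 sequences or in RXRA start 1, and RXRA start 2 held 1 match to the glucocorticoid receptor core. These matches describe letters in the window and are not binding sites.

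The 4 windows carried most called H3K27ac in SUIT2 and least in Panc327. SUIT2 had 34 and 31 peaks in them (replicates 1 and 2), BxPC3 had 23 and 25, and Panc327 had 13 and 9. The summed length under peaks was 90.2 and 94.1 kb in SUIT2, 53.1 and 55.5 kb in BxPC3, and 23.2 and 25.1 kb in Panc327. The libraries of the 3 lines did not overlap in this sum. The lists themselves differed in the same order: SUIT2 peaks covered 60.1 and 63.3 Mb of the genome, those of BxPC3 covered 48.7 and 54.6 Mb and those of Panc327 covered 34.1 and 46.3 Mb, in lists of 27776 to 38335 peaks. As a share of all covered bases, the windows made up 0.150% and 0.149% in SUIT2, 0.109% and 0.102% in BxPC3, and 0.068% and 0.0542% in Panc327. The order of the lines in this sum thus also stood after division by the covered genome, but not each window followed it. In bases in the window per covered Mb, SUIT2 minus BxPC3 was -12.7 at RXRA and -81.9 at VDR. It was 42.0 at NR3C1 and 492.4 at NR5A2. The SUIT2 excess over BxPC3 in the summed share thus came above all from NR5A2. The depth of the libraries is not stated in the lists, and the part of depth in these differences was not tested.

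**Figure D1:**
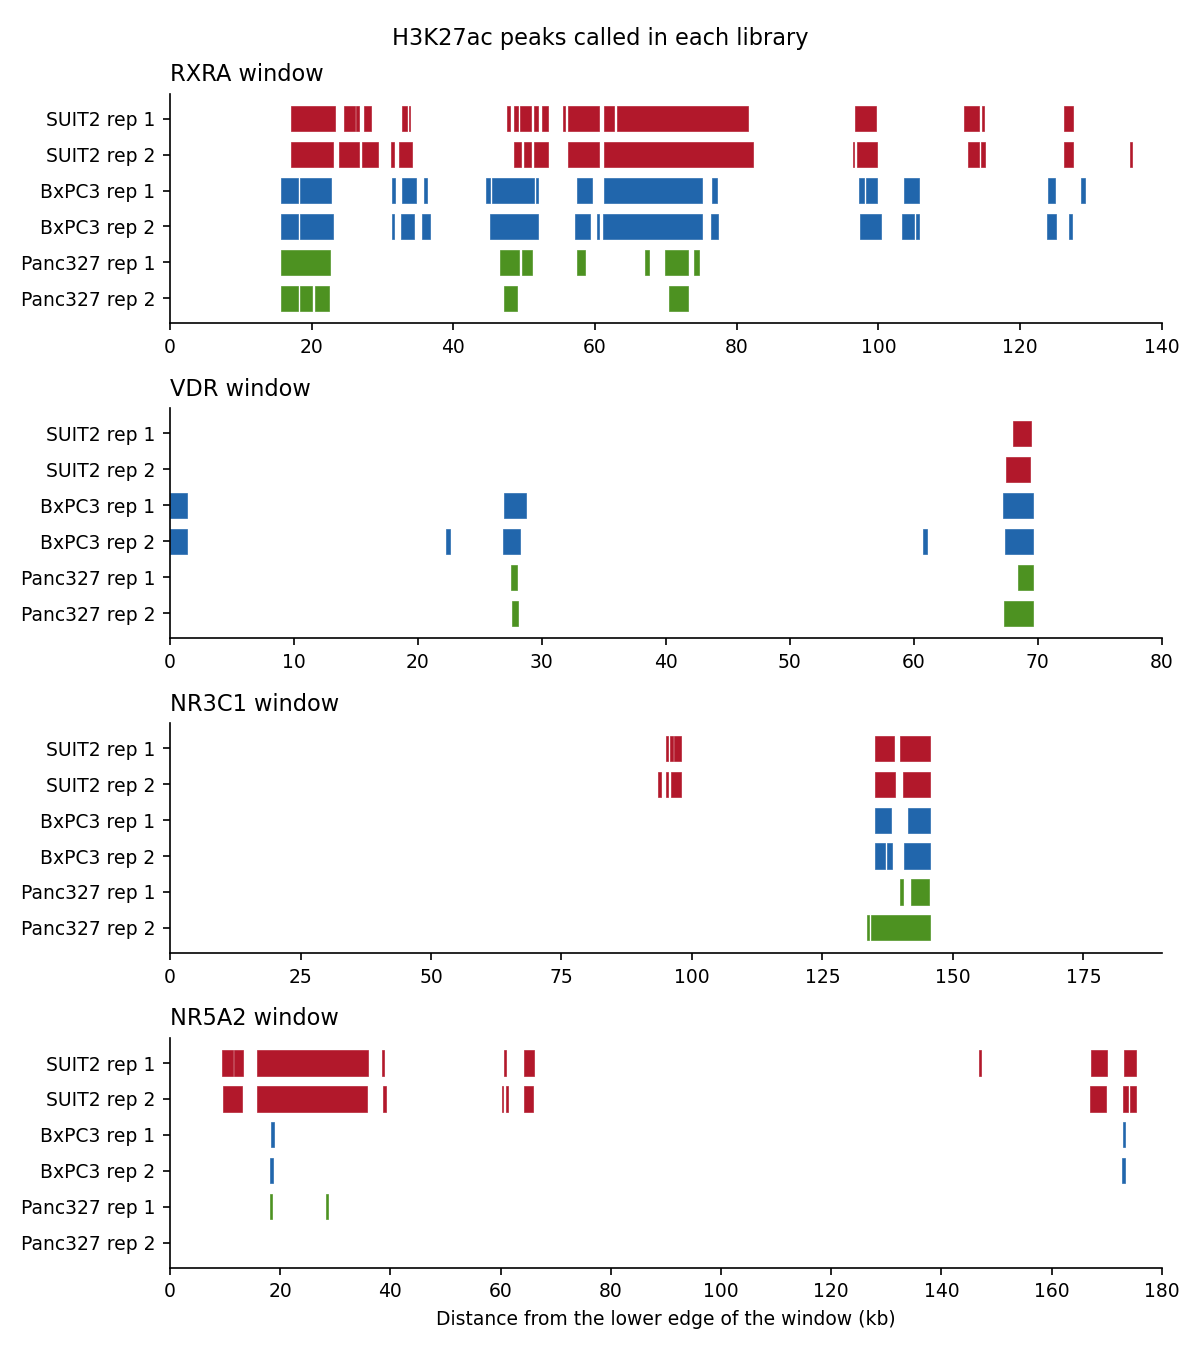
Called H3K27ac peaks in the 4 gene windows. Each row is a library and each bar a peak, along the distance in kb from the lower edge of the window. Peaks are spread along the RXRA window in SUIT2 (32.3% and 35.3% of it covered) and in BxPC3 (28.0% and 29.3%). SUIT2 has a broad peak in the lower part of the NR5A2 window, where each BxPC3 and Panc327 library has at most 2 short peaks in the whole window. The VDR window has the most peaks in BxPC3 (3 and 5).

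The genes differed in which line carried the acetylation. RXRA was broadly covered in SUIT2 and BxPC3, NR5A2 almost only in SUIT2, and VDR most in BxPC3, while the order of the lines at NR3C1 rested on single Panc327 libraries. RXRA and NR5A2, 2 of the 4 windows, had both SUIT2 libraries above the other 4; among 12389 tiles of 150 kb with a peak in any library, 36.8% did. VDR, 1 of 4, had both BxPC3 libraries above the other 4, as did 25.8% of tiles. No window (0 of 4) had both Panc327 libraries on top, against 8.87% of tiles, and in 2 of 4 (RXRA and NR5A2) both Panc327 libraries were lowest, against 25.9% of tiles. With 4 windows, these counts are not set apart from the genome.

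**Figure D2:**
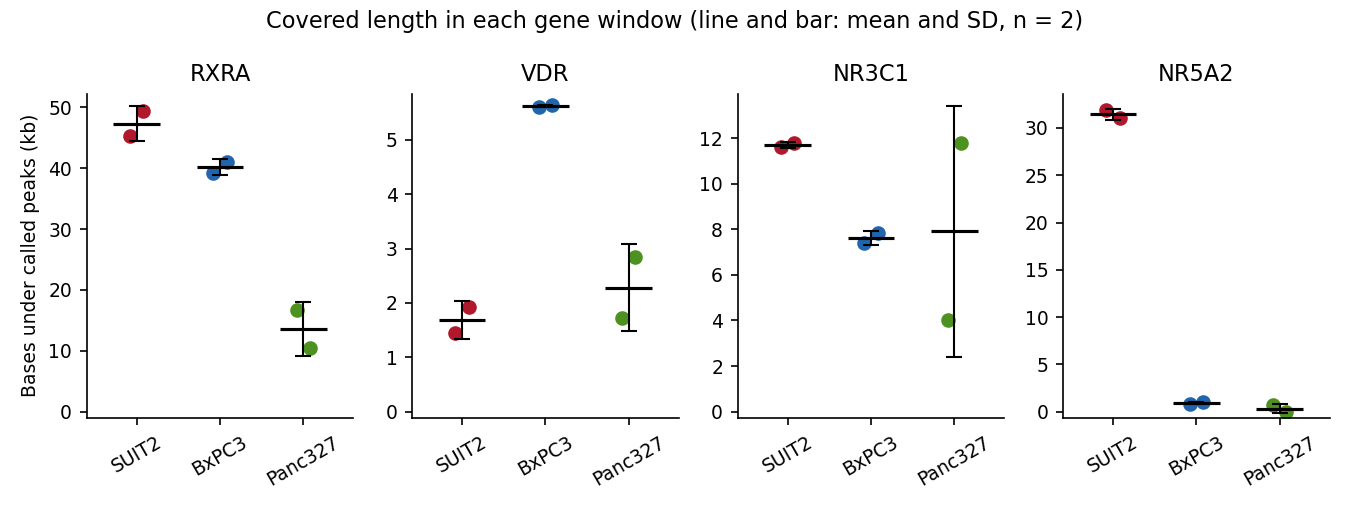
Length under called peaks in each gene window, in kb, by cell line. Points are libraries, and the line and bar are the mean and SD of 2 libraries. SUIT2 stands at 31.5 kb at NR5A2, against 0.92 kb in BxPC3 and 0.33 kb in Panc327, and the Panc327 libraries lie far apart at NR3C1.

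RXRA, the shared heterodimer partner, was covered over a larger share of its window than the other 3 genes in each library. Peaks covered 45.2 and 49.4 kb of it in SUIT2, 39.2 and 41.1 kb in BxPC3, and 16.8 and 10.5 kb in Panc327. That is 32.3% and 35.3% of the window in SUIT2, 28.0% and 29.3% in BxPC3, and 11.97% and 7.48% in Panc327. The Panc327 libraries lay well under all others, and the SUIT2 and BxPC3 libraries did not overlap. Among the 150 kb tiles of its own library, the window ranked at percentile 99.7 and 99.8 in SUIT2, 99.98 and 99.97 in BxPC3, and 98.0 and 91.7 in Panc327, so in each library RXRA was among the most covered stretches of its size. Mean covered length was 47.3 ± 2.9 kb in SUIT2, 40.2 ± 1.28 kb in BxPC3 and 13.6 ± 4.44 kb in Panc327 (SD, n = 2 each).

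SUIT2 exceeded Panc327 by 33.7 kb and BxPC3 exceeded Panc327 by 26.5 kb at RXRA, each larger than the spread between replicates. SUIT2 exceeded BxPC3 by 7.15 kb, and this direction depended on the scale: set against all bases the library covered in the genome (bases in the window per covered Mb), the difference was -12.7. Each of these 3 comparisons had an exact permutation p of 0.333 (two-sided), the smallest that 2 libraries against 2 allow. Over all 6 libraries, 97.7% of the variation in covered length lay between lines, with an exact permutation p of 0.0667 (one-sided, unadjusted, 4 windows tested). This is the smallest p that the 15 ways of pairing 6 libraries allow, so no window could pass a threshold of 0.05.

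RXRA held 20 of the 39 merged regions and 15 of the 28 marked ones, where a region is marked in a line when both of its libraries have a peak there. Regions called in all 6 libraries numbered 3, at chr9:137215613-137223311 (7.70 kb), chr9:137245230-137253319 (8.09 kb) and chr9:137261157-137282275 (21.1 kb). The last of these held the widest peak of SUIT2, 18494 and 21019 bp (chr9:137263125-137281618 and chr9:137261257-137282275), and of BxPC3, 13943 and 13958 bp (chr9:137261221-137275163 and chr9:137261157-137275114). In Panc327 the widest peak was 7017 bp in replicate 1 (chr9:137215613-137222629) and 2602 bp in replicate 2 (chr9:137270459-137273060), so the Panc327 libraries differed in which region was broadest. By width, the widest peak was above 99.7% of its list in each SUIT2 and BxPC3 library (percentiles 99.79 and 99.83 in SUIT2, 99.96 and 99.95 in BxPC3) and at percentiles 99.83 and 84.7 in Panc327.

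The summit of the peak with the highest −log10 q inside the 21.1 kb RXRA region lay elsewhere in BxPC3 than in SUIT2 and Panc327. It was at 137271726 and 137271685 in SUIT2, at 137264099 and 137264087 in BxPC3, and at 137271712 and 137271663 in Panc327. Replicates of these lines were 41, 12 and 49 bp apart. These SUIT2 and Panc327 summits lay among one another, whereas those of BxPC3 lay lower on the chromosome, with 7639 bp between the outermost of the 6. The broad BxPC3 peaks also covered the SUIT2 and Panc327 summits, so BxPC3 was called at that position too. The broad SUIT2 peaks likewise covered the BxPC3 summits, whereas no Panc327 peak did. In the 7.70 kb region all 6 libraries had a summit within 31 bp (137218639 to 137218670). By −log10 q, it was the strongest summit of the region in both SUIT2 libraries and in Panc327 replicate 1, while a lower summit was the strongest in both BxPC3 libraries (137217506 and 137217609) and in Panc327 replicate 2 (137217504). By fold the shared summit was the higher one in these 3 libraries too, at 75.7 against 72.1 and 94.5 against 74.7 in BxPC3 replicates 1 and 2 and at 16.4 against 13.7 in Panc327 replicate 2. In the 8.09 kb region the strongest summit was at 137247821 and 137247835 in BxPC3. It was at 137247818 and 137248774 in Panc327, where the replicates were 956 bp apart. The SUIT2 replicates had theirs higher on the chromosome, at 137252737 and 137250572, 2165 bp apart. By −log10 q these peaks stood at percentile 34.3 and 28.7 of the SUIT2 lists, against 90.5 and 91.7 in BxPC3. At the BxPC3 summits SUIT2 had a peak of 383 bp in replicate 1 (percentile 5.3) and none in replicate 2.

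**Figure D3:**
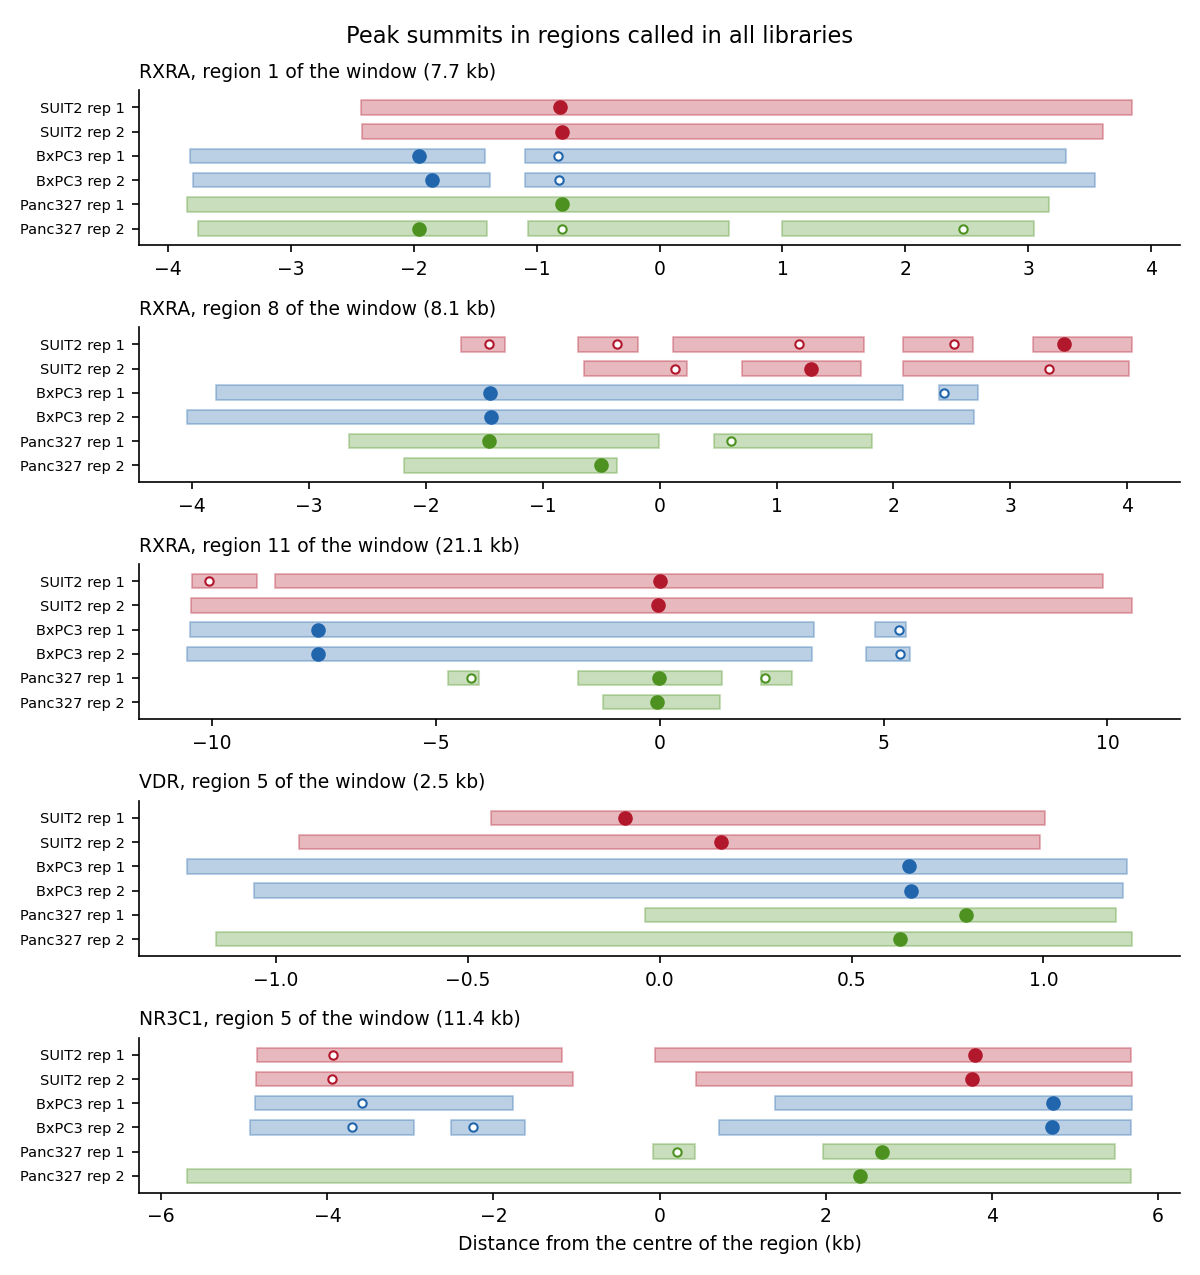
Peaks and summits in the 5 regions called in all 6 libraries, by distance in kb from the centre of each region. Bars are peaks, filled points the summit of the strongest peak of a library and open points the summits of its other peaks. In the 21.1 kb RXRA region the filled BxPC3 points stand to the left of the filled points of SUIT2 and Panc327. In the NR3C1 region the filled points have their own position in each line.

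SUIT2 alone marked 4 of the 15 marked RXRA regions (26.7%, against 17.7% of the marked regions of the genome), chr9:137223808-137226743, chr9:137227132-137229300, chr9:137312152-137314221 and chr9:137314492-137315022. BxPC3 alone marked 3 (20%, near the 17.6% of the genome), chr9:137235597-137236656, chr9:137303387-137305747 and chr9:137323835-137325009. SUIT2 and BxPC3 shared 2 regions with no Panc327 peak (13.3%, against 5.71%), chr9:137232288-137234737 and chr9:137296695-137300421. Panc327 alone marked 0 regions of the window, against 7.90% in the genome. The other marked regions, 3 in number and 662 to 4445 bp wide, were called in only 1 library of some line, and 5 unmarked regions were 230 to 539 bp wide.

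The strongest RXRA peak ranked high in most lists. By −log10 q, the peak caller's measure of confidence, it stood at percentile 96.9 and 98.1 of its own list in SUIT2, 99.0 and 99.1 in BxPC3, and 94.1 and 81.1 in Panc327. Read pile-up at that summit, solved from the fold and p of the peak, was 554 and 618 reads in SUIT2 and 367 and 99 in Panc327, and the BxPC3 values of 256 and 373 are on a scaled pile-up that cannot be set beside them. Panc327 replicate 2 had the lowest percentile of the 6 libraries. The pile-ups come from libraries of unknown depth, and the strongest peaks of the Panc327 libraries lay in different regions, so these reads are not a comparison of levels. The local background at the peaks of the window, which comes from the input library, had a median ratio to the genome-wide level of 1.00 and 1.18 in SUIT2, 1.06 and 1.09 in BxPC3, and 1.00 and 1.47 in Panc327. Ratios below 1.00 were set to 1.00, so this value cannot show a background under the genome-wide level. The part of the raised background in the low values of Panc327 replicate 2 was not tested.

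VDR, the vitamin D receptor, was the least covered window in SUIT2 and was most covered in BxPC3. Peaks covered 1.44 and 1.93 kb of it in SUIT2, 5.61 and 5.63 kb in BxPC3, and 1.72 and 2.85 kb in Panc327. The BxPC3 libraries were above the other 4, and SUIT2 and Panc327 overlapped. Mean covered length was 1.69 ± 0.34 kb in SUIT2, 5.62 ± 0.02 kb in BxPC3 and 2.28 ± 0.8 kb in Panc327 (SD, n = 2 each). SUIT2 minus BxPC3 was -3.93 kb and BxPC3 minus Panc327 was 3.34 kb, both beyond the replicate spread (exact permutation p = 0.333 each, two-sided). SUIT2 minus Panc327 was -0.59 kb, within the replicate spread (exact permutation p = 0.667). Between lines lay 96.0% of the variation (exact permutation p = 0.133, one-sided, unadjusted).

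The whole of the SUIT2 signal at VDR was a single peak in each library, and it lay in the region that all 6 libraries shared, chr12:48297183-48299647. This region held the widest VDR peak of SUIT2 (1444 and 1931 bp) and of Panc327 (1228 and 2388 bp). It also held that of BxPC3 replicate 1 (2452 bp), and in BxPC3 replicate 2 the peak there was 2266 bp wide. BxPC3 alone marked chr12:48228639-48231395, which crosses the lower edge of the window and was 2409 and 2757 bp wide in the 2 libraries. BxPC3 and Panc327 both marked chr12:48256877-48258723, with no SUIT2 peak: it was covered over 1774 and 1376 bp in BxPC3 and over 490 and 459 bp in Panc327. The window held 2 more regions, of 278 and 315 bp, each called in a single BxPC3 library.

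VDR peaks were of middling rank in their lists. The strongest stood at percentile 34.1 and 43.6 by −log10 q in SUIT2, 76.9 and 75.5 in BxPC3, and 57.3 and 63.8 in Panc327. In the shared region the SUIT2 summits (48298325 and 48298574) lay lower on the chromosome than those of BxPC3 (48299065 and 48299070) and Panc327 (48299213 and 48299042), with 888 bp between the outermost. The 2 SUIT2 summits were themselves 249 bp apart and those of BxPC3 5 bp. By covered share, the window stood at percentile 51.6 and 57.9 of the 150 kb tiles in SUIT2 and 90.5 and 88.8 in BxPC3. In Panc327 it stood at 74.6 and 75.7. The window is shorter than a tile, and shares of bases were ranked, not lengths.

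**Figure D4:**
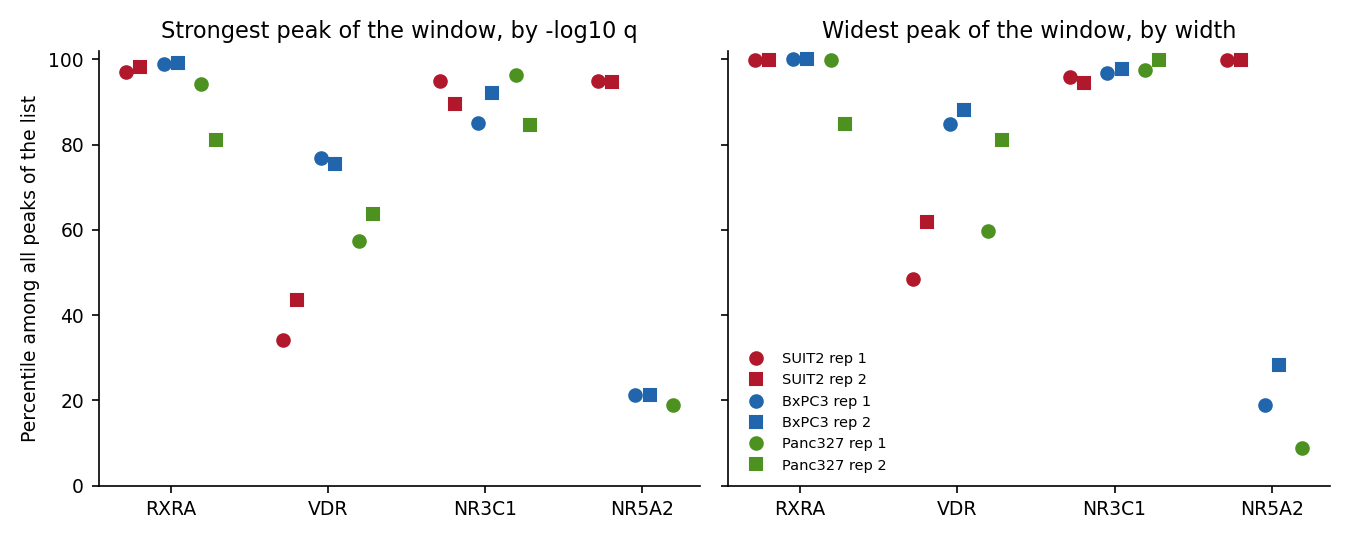
Rank of the strongest peak (left, by −log10 q) and of the widest peak (right, by width) of each gene window, as the percentile among all peaks of the same list. Circles are replicate 1 and squares replicate 2. NR5A2 points stand at 94.6 and above in SUIT2 and at 28.3 and below in BxPC3 and Panc327, where replicate 2 of Panc327 has no peak.

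NR3C1, the glucocorticoid receptor, carried a strong peak in all 3 lines within a single region. Peaks covered 11.6 and 11.8 kb of the window in SUIT2, 7.40 and 7.83 kb in BxPC3, and 4.02 and 11.8 kb in Panc327. The SUIT2 libraries lay above those of BxPC3, while the Panc327 libraries lay on both sides of BxPC3 and overlapped SUIT2. Mean covered length was 11.7 ± 0.13 kb in SUIT2, 7.62 ± 0.31 kb in BxPC3 and 7.91 ± 5.49 kb in Panc327 (SD, n = 2 each). SUIT2 minus BxPC3 was 4.08 kb, beyond the replicate spread (exact permutation p = 0.333, two-sided). SUIT2 minus Panc327 was 3.79 kb (exact permutation p = 0.667) and BxPC3 minus Panc327 -0.29 kb (exact permutation p = 1), both within the spread.

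Only 40.7% of the variation at NR3C1 lay between lines (exact permutation p = 0.533, one-sided, unadjusted), and the Panc327 pair decided this value. Without Panc327 replicate 1 it was 99.5% and without Panc327 replicate 2 it was 99.7%, with exact permutation p-values of 0.2 and 0.0667. With a single Panc327 library the spread within lines comes from SUIT2 and BxPC3 alone, so these shares show how far the Panc327 libraries lay apart and not that the lines differ. The direction of both Panc327 differences turned as well: SUIT2 minus Panc327 was -0.09 kb without Panc327 replicate 1, and BxPC3 minus Panc327 was 3.59 kb without Panc327 replicate 2.

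The region that all 6 libraries shared, chr5:142774267-142785652 (11.4 kb), held every NR3C1 peak of BxPC3 and of Panc327 replicate 1. In Panc327 replicate 2 it was a single peak of 11372 bp (chr5:142774267-142785638), with a pile-up of 140 reads over a local background 2.94 times the genome-wide level. In Panc327 replicate 1 the widest peak was 3516 bp, with 423 reads over a background of 1.15 times that level. The widest peaks of SUIT2 were 5734 and 5252 bp and those of BxPC3 4299 and 4959 bp. The broad peak thus stood in the library with the highest background at these peaks, and its part in the width was not tested. By −log10 q the strongest NR3C1 peak was at percentile 95.0 and 89.4 of its list in SUIT2, 85.0 and 92.0 in BxPC3, and 96.4 and 84.6 in Panc327.

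The summit of the strongest peak in the NR3C1 region had its own position in each line. It was at 142783759 and 142783725 in SUIT2, at 142784693 and 142784684 in BxPC3, and at 142782631 and 142782376 in Panc327. Replicates were 34, 9 and 255 bp apart in these lines, and the outermost of the 6 summits were 2317 bp apart, so lines were further apart than replicates. SUIT2 alone marked 2 further regions, chr5:142735005-142735421 and chr5:142735865-142737953. In the second, the SUIT2 replicate 2 peak had a −log10 q of 213.1 and a fold of 12.2, which no whole number of reads explains together, and it was left out of the pile-up and background values. The replicate 1 peak there had a −log10 q of 36.4 and a fold of 10.9. The 2 unmarked NR3C1 regions were 421 and 468 bp wide.

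NR5A2, the acinar-associated receptor, was covered by a broad H3K27ac domain in SUIT2 and by little in BxPC3 and Panc327. Peaks covered 31.9 and 31.1 kb of its window in SUIT2, 0.824 and 1.02 kb in BxPC3, and 0.667 and 0 kb in Panc327. All 4 BxPC3 and Panc327 libraries lay far under both SUIT2 libraries. By covered share, the window stood at percentile 98.1 and 97.6 of the 150 kb tiles in SUIT2, 29.1 and 28.3 in BxPC3, and 37.9 and 0 in Panc327. The percentile counts tiles with a smaller covered share, so a window without a peak stands at 0 by definition, level with every empty tile. Mean covered length was 31.5 ± 0.57 kb in SUIT2, 0.92 ± 0.14 kb in BxPC3 and 0.33 ± 0.47 kb in Panc327 (SD, n = 2 each). SUIT2 covered 34.1 times as much of the window as BxPC3.

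SUIT2 minus BxPC3 was 30.5 kb and SUIT2 minus Panc327 was 31.1 kb at NR5A2, against SDs of at most 0.57 kb (exact permutation p = 0.333 each, two-sided, the smallest possible). Over the whole genome SUIT2 peaks covered 1.19 times as many bases as BxPC3 peaks and 1.54 times as many as Panc327 peaks. BxPC3 minus Panc327 was 0.59 kb (exact permutation p = 0.333), and it turned to -0.16 kb with peaks of a −log10 q of at least 20 only and to -0.12 kb with the lists cut to equal length. Between lines lay 99.96% of the variation in covered length (exact permutation p = 0.0667, one-sided, unadjusted).

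A single peak made up most of the SUIT2 domain at NR5A2. It was 20232 and 19963 bp wide, spanned chr1:199995752-200015983 in replicate 1, and stood at percentile 99.84 and 99.82 of the SUIT2 lists by width and at 95.0 and 94.6 by −log10 q. Its summits, at 200008560 and 200008725, had pile-ups of 471 and 492 reads. In the same span BxPC3 had peaks of 388 and 529 bp, with summits at 199998500 and 199998538, and Panc327 replicate 1 had peaks of 315 and 352 bp, with summits at 199998362 and 200008507. The pile-ups of these Panc327 peaks were 29 and 24 reads. One of the 2 Panc327 peaks thus lay close to the SUIT2 summits and the other close to those of BxPC3. Panc327 replicate 2 had no peak in the window, which says that nothing passed the caller's threshold there and not that the mark was absent.

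The region of the broad peak was also marked in BxPC3, through its short peaks. SUIT2 alone marked 5 NR5A2 regions, chr1:199989397-199993229, chr1:200018527-200019221, chr1:200040623-200041253, chr1:200044164-200046073 and chr1:200147061-200149975. The first and the last of them were the strongest, with −log10 q values of 258.1 and 255.4 at the first and 101.0 and 135.8 at the last. The second region had values of 9.6 and 15.4 and the third 10.5 and 11.1. These lay near the lowest values of the SUIT2 lists, 8.28 and 8.34. SUIT2 and BxPC3 shared chr1:200152869-200155359, covered over 2145 and 2003 bp in SUIT2 and 436 and 493 bp in BxPC3, with no Panc327 peak. The median local background at NR5A2 peaks had a ratio to the genome-wide level of 1.08 and 1.00 in SUIT2, 1.01 and 1.03 in BxPC3 and 1.15 in Panc327 replicate 1. At the broad peak it was 1.00 in both SUIT2 libraries, the lowest value this ratio can take. Below the window, the nearest peak was 1851 and 1073 kb away in Panc327, against 77.8 to 78.4 kb in SUIT2 and BxPC3. In the RefSeq order of genes PTPRC is the neighbour below NR5A2 and ZNF281 the one above it.

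Overlap of the covered bases depends on the covered lengths given above and is not separate support for them. The Jaccard index, the shared covered bases over all covered bases of 2 libraries, was 0.828, 0.855 and 0.625 between replicates of SUIT2, BxPC3 and Panc327 at RXRA. Between lines it averaged 0.489 for SUIT2 and BxPC3, 0.209 for SUIT2 and Panc327 and 0.333 for BxPC3 and Panc327 there, each under all 3 replicate values. At NR5A2 it was 0.887 between SUIT2 replicates, 0.57 between BxPC3 replicates and 0 between Panc327 replicates, of which replicate 2 had no peak. Between lines it averaged 0.022 for SUIT2 and BxPC3, 0.01 for SUIT2 and Panc327 and 0.083 for BxPC3 and Panc327. The index cannot exceed the shorter covered length over the longer one. The low NR5A2 values against SUIT2 were thus set by the lengths and do not show that the lines marked different bases. At VDR replicates had 0.736 in SUIT2, 0.787 in BxPC3 and 0.544 in Panc327, and SUIT2 and Panc327 averaged 0.518. At NR3C1 the Panc327 replicates shared less (0.341) than any pair of lines did on average (0.481 to 0.644).

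Counted over the 4 windows, SUIT2 marked 22 of the 39 regions, BxPC3 marked 16 and Panc327 marked 6, and 28 were marked in at least 1 line. All 6 libraries called 5 of the 28 (17.9%), against 29.4% of the 43240 marked regions of the genome. SUIT2 alone marked 11 (39.3%), against 17.7% of the genome's, with 5 of them at NR5A2, 4 at RXRA, 2 at NR3C1 and 0 at VDR. BxPC3 alone marked 4 (14.3%), against 17.6%, and Panc327 alone marked 0, against 7.90%. SUIT2 and BxPC3 without Panc327 marked 3 (10.7%), against 5.71%, SUIT2 and Panc327 without BxPC3 marked 0, against 1.60%, and BxPC3 and Panc327 without SUIT2 marked 1 (3.57%), against 5.21%. The SUIT2-only share was thus above that of the genome and the all-library share below it. Neighbouring regions of a window are not independent, and no test was made of these shares.

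**Figure D5:**
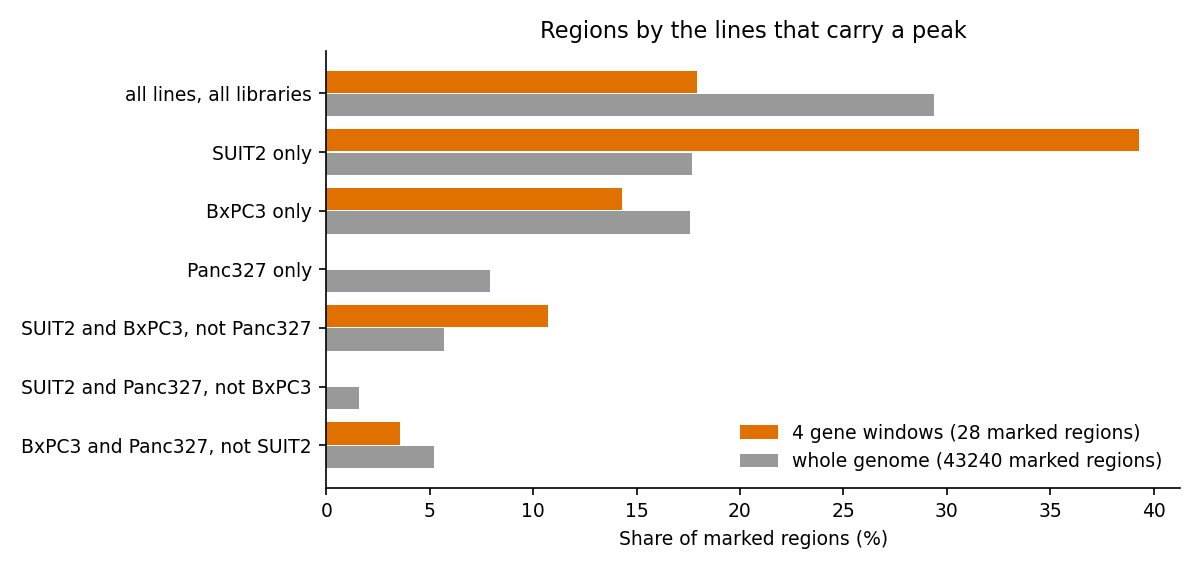
Share of marked regions, in percent, by the lines that carry a peak. Orange bars are the 28 marked regions of the 4 gene windows and grey bars the 43240 marked regions of the genome. SUIT2 only is the largest class in the windows (39.3%), whereas regions called in all libraries are the largest in the genome (29.4%).

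Some of these counts rested on single libraries, since marking asks for both. Leaving out SUIT2 replicate 2 gave 17 regions of SUIT2 alone, leaving out BxPC3 replicate 1 gave 7 of BxPC3 alone, and leaving out Panc327 replicate 1 gave 1 of Panc327 alone and 5 of SUIT2 and BxPC3 without Panc327. The number called in all libraries was 5 to 7 with a library left out, but 1 when peaks had to cover at least 50% of a merged region, and Panc327 then marked 1 region in place of 6. With peaks up to 500 bp apart merged, SUIT2 alone marked 7 regions. With peaks of a −log10 q of at least 20 only, it marked 8 in place of 11.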

How the data were processed

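H3K27ac ChIP and input libraries of untreated SUIT2, BxPC3 and Panc327 cells came from chromatin that was crosslinked and sonicated, and KAPA HyperPrep was the library kit, per the labels' protocols. The submitters' processing notes name Bowtie 1.1.1 and bcl2fastq 1.8.4 beside MACS2, and hg19 as the build; the version of MACS2 is not given in the sources used here. The authors deposited 1 peak list per H3K27ac library, so peaks were called per library. The fold of each deposited peak is the authors' ratio of pile-up to local background, and the deposited −log10 p and −log10 q are the authors' values from the caller; they were used only within a list. The 6 input libraries entered only through that background.

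Peaks sharing at least 1 bp were merged over the 6 lists. Covered bases were clipped to the window, summarised as mean ± SD over 2 libraries and compared with exact permutation tests. Pile-up and background were solved from the fold and p, taking a pseudocount of 1 and a Poisson tail as MACS2 is known to use. The peaks solved were every 50th of each list and all those in the windows or within 500 kb of them. For SUIT2 and Panc327 the pile-up was taken as a whole number of reads. At least 99.86% of the solved peaks in each of their lists were explained within 0.001 of the −log10 p. Of the 135 window peaks, 1 was not. The genome-wide background, the most common value, was 1.46 to 3.61 reads. Spread was taken from 2 libraries per line, counting error was not estimated, and total depth is unknown. The scripts were tested on simulated data. Software was scipy 1.17.1, pandas 2.3.3, numpy 2.4.6 and matplotlib 3.10.9 under Python 3.11.15.

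The regions named by position are those called in all 6 libraries, those marked in exactly 1 or exactly 2 lines with no peak elsewhere, and the widest peak of each library; the 20.2 kb NR5A2 region, called in 5 libraries, was named through its widest peak. Windows, lists and tests were chosen with earlier results of these data known. A list of other nuclear receptor genes and cell type markers were not analysed here, since they need hg19 gene positions. Alternatives covered the peak threshold, the list size, the merging and overlap rules, the window edges, the scale, each library left out and the replicate block.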

Additional observations from a re-analysis of the deposited data

How the results depend on the processing

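Of 108 covered-length differences recomputed under an alternative, some could not change. The replicate block leaves a difference of means as it is. Counting peaks at their whole length matters only where a peak crosses a window edge, as at VDR. With these included, 103 of the 108 kept their direction and their side of the threshold. With 2 libraries a line no difference can pass 0.05, so this says nothing of significance. Those that turned were RXRA SUIT2 minus BxPC3 (-12.7 bases in the window per Mb covered in the genome), NR5A2 BxPC3 minus Panc327 (-0.16 kb with a −log10 q of at least 20, -0.12 kb with 27776 peaks from each list), NR3C1 SUIT2 minus Panc327 (-0.09 to 7.68 kb with a library left out) and NR3C1 BxPC3 minus Panc327 (-4.18 to 3.59 kb); the cause was not tested. With each library left out in turn, the counts ranged from 11 to 17 for SUIT2 alone, 4 to 7 for BxPC3 alone, 0 to 1 for Panc327 alone and 3 to 5 for SUIT2 and BxPC3 without Panc327. When peaks had to cover at least 50% of a merged region, 1 region was called in all libraries, 0 were marked in BxPC3 and Panc327 without SUIT2 and 1 was marked in Panc327; a −log10 q of at least 20 also left 0 in BxPC3 and Panc327 without SUIT2. Merging peaks up to 500 bp apart left 7 for SUIT2 alone. The other 91 of 100 region counts stayed within 1.5 times. With 500 kb added on both sides, the local background was 1.24 times the genome-wide level for VDR in SUIT2 and 1.39 in BxPC3, and for NR5A2 1.27 in BxPC3 and 1.59 in Panc327. With the replicate number as a block, the differences were unchanged (RXRA SUIT2 minus BxPC3 stayed 7.15 kb) and the share of variation between lines at RXRA, VDR and NR5A2 had an exact permutation p of 0.167, the smallest the block allows. Deviations of same-numbered libraries over 150 kb tiles correlated at 0.26, 0.161 and 0.32 between pairs of lines; nothing else says that the numbers pair the samples. Depth is unknown, so a missing peak means only that the caller's threshold was not passed.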
